A study of Mus musculus with 4 samples.

Results

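The tubulin polyglutamylases are the members of the tubulin tyrosine ligase-like (TTLL) family that add glutamate side chains to tubulin. The 8 genes Ttll1, Ttll4, Ttll5, Ttll6, Ttll7, Ttll9, Ttll11 and Ttll13 were chosen by name from 22311 genes listed in the files. No cut on their values was used, but earlier results of these data were known, so the choice was not blind to them. All 8 were found, and all 8 passed the filter on low values used for testing. Whole testes of 24-day-old male mice (P24) were sequenced, 2 samples from Rfx2-/- mutants and 2 from controls. The study describes the controls as heterozygous for the mutated allele and the mice as of mixed 129/s6 and C57BL/6 background, while the labels give the controls as wild type and the strain as DBA for both groups. The allele came from 1 embryonic stem cell clone, in which a neomycin cassette replaced the exons for the DNA-binding domain in every cell of the body, and mutants with normal growth were taken for study. Rfx2 encodes a transcription factor of the RFX family, whose members bind a DNA motif named the X-box. The comparison asks which transcripts of this enzyme family depend on RFX2 in the testis, at an age when round spermatids are present and the flagellum starts to form.

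Polyglutamylation attaches a first glutamate to the tail of tubulin as a branch and then lengthens the branch, and distinct enzymes prefer the first step or the later one. It is abundant on the stable microtubules of cilia, centrioles and the sperm flagellum, where it affects the motors and severing enzymes that act on microtubules. Carboxypeptidases of the CCP family shorten and remove the side chains. TTLL4, TTLL5 and TTLL7 are mainly enzymes of the first step, and TTLL6, TTLL11 and TTLL13 mainly lengthen chains. TTLL1 is the catalytic subunit of a larger complex, and TTLL9 is known for its role in the sperm flagellum.

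The authors deposited FPKM, fragments per kilobase of transcript scaled to the depth of the sample, with the bounds of a confidence interval for each gene in each sample. These bounds correspond to between 17.2 and 20.3 M fragments per sample. The genotypes were compared by limma, a linear model fitted to log2(FPKM + 1) of 12985 genes. These genes reached an FPKM of 1 in 2 or more samples, and a gene was called at an adjusted p under 0.05. In this fit, 2.52% of the genes were called lower in the mutant samples and 0.308% higher. Fold changes below are on the log2(FPKM + 1) scale, which understates the change of genes with low FPKM. The FPKM of Rfx2 itself was 123 and 89.4 in the controls but 36.7 and 39.8 in the mutants, a log2 fold change of -1.43 (adjusted p = 0.00617). This value covers the whole gene and does not measure the replaced exons. Rfx2 was not called without a filter on low values (adjusted p = 0.0607), with median-ratio scaling (0.0730) or without control 1 (0.0628). Transcripts of all the testis cell types that were checked by their markers were found in every sample. Mutant 1 stood apart from the other 3 samples, as the summed FPKM of 10 markers of elongating spermatids was 1523 in it, 7081 in mutant 2 and 8321 and 5688 in the controls. None of the 10 markers was called, and none was at 0. In mutant 2, Prm1, Prm2, Tnp1 and Tnp2 stood at 1195, 969, 999 and 1571 within this sum. The study reports that mutant germ cells stop as round spermatids and do not become elongating spermatids. By RT-PCR it found no difference in these 4 transcripts between wild type and mutants. The sum therefore measures RNA of the listed genes and does not count elongating spermatids. The 8 markers of round spermatids summed to 627 and 926 in mutants 1 and 2 and to 840 and 727 in the controls, with 1 marker, Dpy19l2, called lower. No marker of spermatogonia, Sertoli cells, Leydig cells, peritubular cells or macrophages was called by limma, and 0 had an unadjusted p under 0.05.

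Transcripts of 2 of the 8 polyglutamylases, Ttll6 and Ttll1, were lower in Rfx2-/- testes, and none was higher. Of all genes tested, 2.52% were called lower and 0.308% higher. Ttll6 fell to 10.6% of the control mean and Ttll1 to 32.9%. The other 6 ranged from 56.6% of the control mean for Ttll9 to 85.7% for Ttll5 and did not pass the test. In 7 of the 8 genes both mutant samples lay below both controls, where 15.2% of all genes tested did so. An unadjusted p under 0.05 and a lower value in the mutants was found for 4 of the 8, against 6.68% of all genes tested. Their log2 fold changes had a median of -0.50, and those of all genes tested had a median of 0.032. In these whole testes, fewer cells of a type and less RNA per cell cannot be told apart. With each sample left out in turn, the log2 fold change lay between -3.00 and -2.87 for Ttll6 and between -1.61 and -1.25 for Ttll1. It was -1.06 for Ttll9 and -0.69 for Ttll13 without mutant 2, against -0.56 and -0.18 without mutant 1. Ttll1 was not called by limma without a filter on low values (adjusted p = 0.0881).

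**Figure D1:**
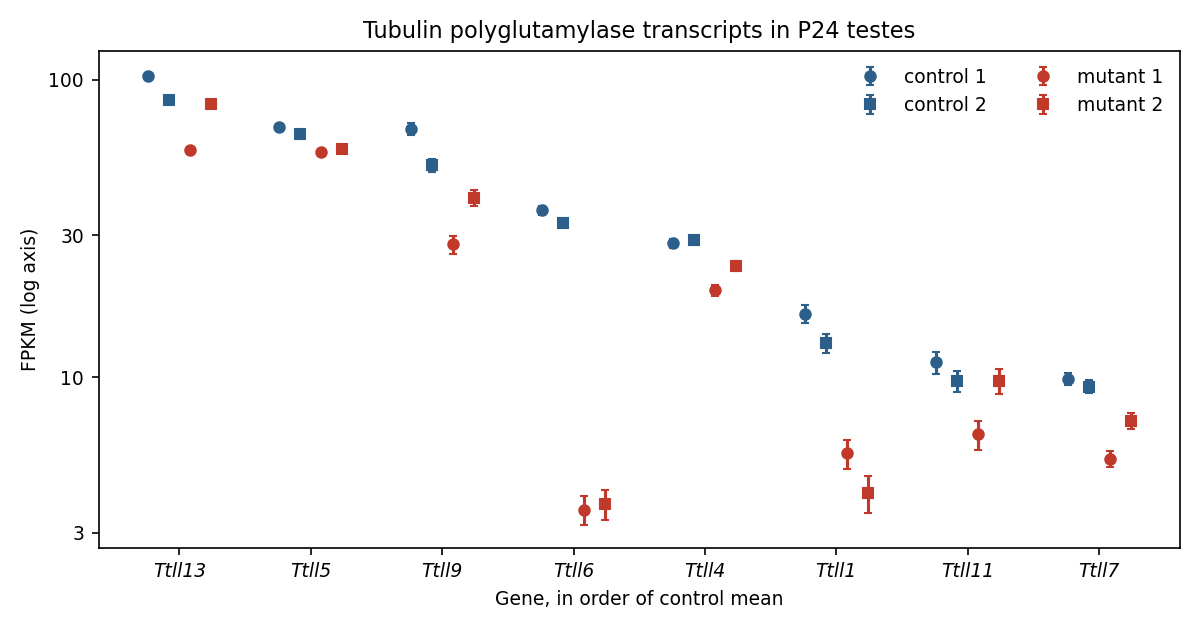
FPKM of the 8 polyglutamylase genes in each sample, on a log axis, with genes in order of the control mean. Blue points are controls, red points are mutants, circles are replicate 1, squares are replicate 2, and bars are the confidence bounds deposited by the authors, which cover the estimate within a sample and not the spread between samples. The mutant points of Ttll6 lie at 3.58 and 3.75, against 33.1 and 36.4 in the controls, while in Ttll11 mutant 2 lies at the level of control 2.

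The sequence before the start of the genes was searched for the X-box, since RFX factors bind it. On NCBIM37, the same build as the mm9 of the files, the genes lie at chr15:83314202-83341323 (Ttll1, minus strand), chr11:95995100-96026765 (Ttll6, plus strand) and chr2:152788221-152834218 (Ttll9, plus strand). The bases before the most upstream annotated start are shown for the 2 genes that were called and for Ttll9, which holds the best match. They read 5′ to 3′ on the strand of the gene, and capitals mark the match to the X-box, with 1 mismatch in Ttll1 and 0 in Ttll9, while Ttll6 holds no match. The first 2 run from 250 bases before the start to the last base before it, at chr15:83341324-83341573 and chr11:95994850-95995099. The third, at chr2:152787971-152788223, runs on to base 3 of the gene because the match spans the start.
Ttll1: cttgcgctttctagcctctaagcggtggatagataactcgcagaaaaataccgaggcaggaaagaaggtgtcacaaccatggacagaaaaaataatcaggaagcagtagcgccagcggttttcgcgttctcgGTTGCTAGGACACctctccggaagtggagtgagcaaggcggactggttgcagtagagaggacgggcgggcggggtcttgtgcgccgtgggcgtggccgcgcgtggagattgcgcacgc
Ttll6: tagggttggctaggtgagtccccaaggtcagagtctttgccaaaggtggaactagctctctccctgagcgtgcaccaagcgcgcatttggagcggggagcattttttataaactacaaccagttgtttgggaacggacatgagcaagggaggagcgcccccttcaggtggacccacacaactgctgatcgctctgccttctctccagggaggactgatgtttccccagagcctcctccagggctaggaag
Ttll9: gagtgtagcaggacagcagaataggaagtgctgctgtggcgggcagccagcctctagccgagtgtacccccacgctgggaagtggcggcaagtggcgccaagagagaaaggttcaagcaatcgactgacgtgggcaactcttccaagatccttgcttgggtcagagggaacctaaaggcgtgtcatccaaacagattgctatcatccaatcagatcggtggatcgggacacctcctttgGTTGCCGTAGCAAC

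Of the chain-lengthening enzymes, Ttll6 showed the largest difference among the 8 genes. TTLL6 builds long side chains on the tubulin of cilia. Its FPKM was 36.4 in control 1 and 33.1 in control 2, against 3.58 in mutant 1 and 3.75 in mutant 2. The mutants were alike and far below the controls, with means of 34.7 ± 2.35 (SD, n = 2) in the controls and 3.67 ± 0.122 (SD, n = 2) in the mutants. The log2 fold change was -2.93 (standard error 0.18, 95% interval -3.36 to -2.51, adjusted p = 0.000111), and 0.447% of the genes tested had a lower one. Ttll6 passed the threshold in all 16 alternative fits run. The bounds correspond to between 290 and 3147 fragments of Ttll6 per sample, and the widest half-width was 11.7%, in mutant 2.

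The other chain-lengthening genes did not pass the test. Ttll13, the member with the highest mean FPKM in both groups, was at 103 in control 1, 85.8 in control 2, 58.0 in mutant 1 and 82.7 in mutant 2. Mutant 2 was close to control 2, and only mutant 1 was well below (log2 fold change -0.43, standard error 0.21, adjusted p = 0.710). Leaving out mutant 2 gave Ttll13 an adjusted p of 0.0465. Ttll11 was at 11.2 and 9.71 in the controls and at 6.43 and 9.72 in mutants 1 and 2. These groups overlapped, the only such case among the 8 genes (log2 fold change -0.36, 95% interval -0.91 to 0.19, adjusted p = 0.9999).

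Ttll1 encodes the catalytic subunit of the polyglutamylase complex, which is needed for normal sperm flagella and airway cilia. Its FPKM was 16.3 in control 1 and 13.0 in control 2, against 5.55 in mutant 1 and 4.09 in mutant 2. Both mutants were well below both controls, and mutant 2 was the lower of them. The log2 fold change was -1.43 (standard error 0.23, 95% interval -1.96 to -0.90, adjusted p = 0.0146). Ttll1 passed the threshold in 12 of 16 alternative fits, and its adjusted p was 0.196 without control 1 and 0.0746 without control 2. The bounds correspond to between 197 and 881 fragments of Ttll1, and its lowest value had a half-width of 14.2%. The study chose Ttll1 and Ttll6 for real-time PCR from its own analysis of these samples, so their direction here is not independent evidence. By that PCR it reports most of the cilia genes as lower in mutants, with neither Ttll1 nor Ttll6 among the exceptions it names.

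Ttll9, the enzyme known for the sperm flagellum, had the third largest difference and was not called. It stood at 68.6 in control 1, 51.7 in control 2, 28.0 in mutant 1 and 40.1 in mutant 2. The groups did not overlap, but each varied within itself (log2 fold change -0.81, standard error 0.22, adjusted p = 0.158). Its adjusted p was 6.18e-05 without mutant 2 and 0.0413 with robust variance estimation, and the difference narrowed to -0.56 without mutant 1. Exons of Ttll9 overlap those of the antisense gene model Gm14199, and whether counting used strand is not given in the sources used here.

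None of the 3 genes of the first step passed the test. Ttll7 was at 9.88 and 9.31 in the controls and at 5.33 and 7.15 in mutants 1 and 2 (log2 fold change -0.56, standard error 0.22, adjusted p = 0.453). Ttll4 was at 28.3 and 28.9 in the controls and at 19.6 and 23.7 in the mutants (log2 fold change -0.39, standard error 0.17, adjusted p = 0.602). In both genes the mutants lay below the controls and mutant 1 was the lower. Ttll5 was at 69.3 and 65.7 in the controls and at 57.3 and 58.5 in the mutants (log2 fold change -0.22, 95% interval -0.58 to 0.14, adjusted p = 0.9999). Its fold change was the smallest of the 8 genes, and its bounds were the narrowest, at 6976 to 9310 fragments. The interval of Ttll5 still includes a decrease of 0.58 on the log2 scale, so that a small change was not detectable with 2 samples per group.

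**Figure D2:**
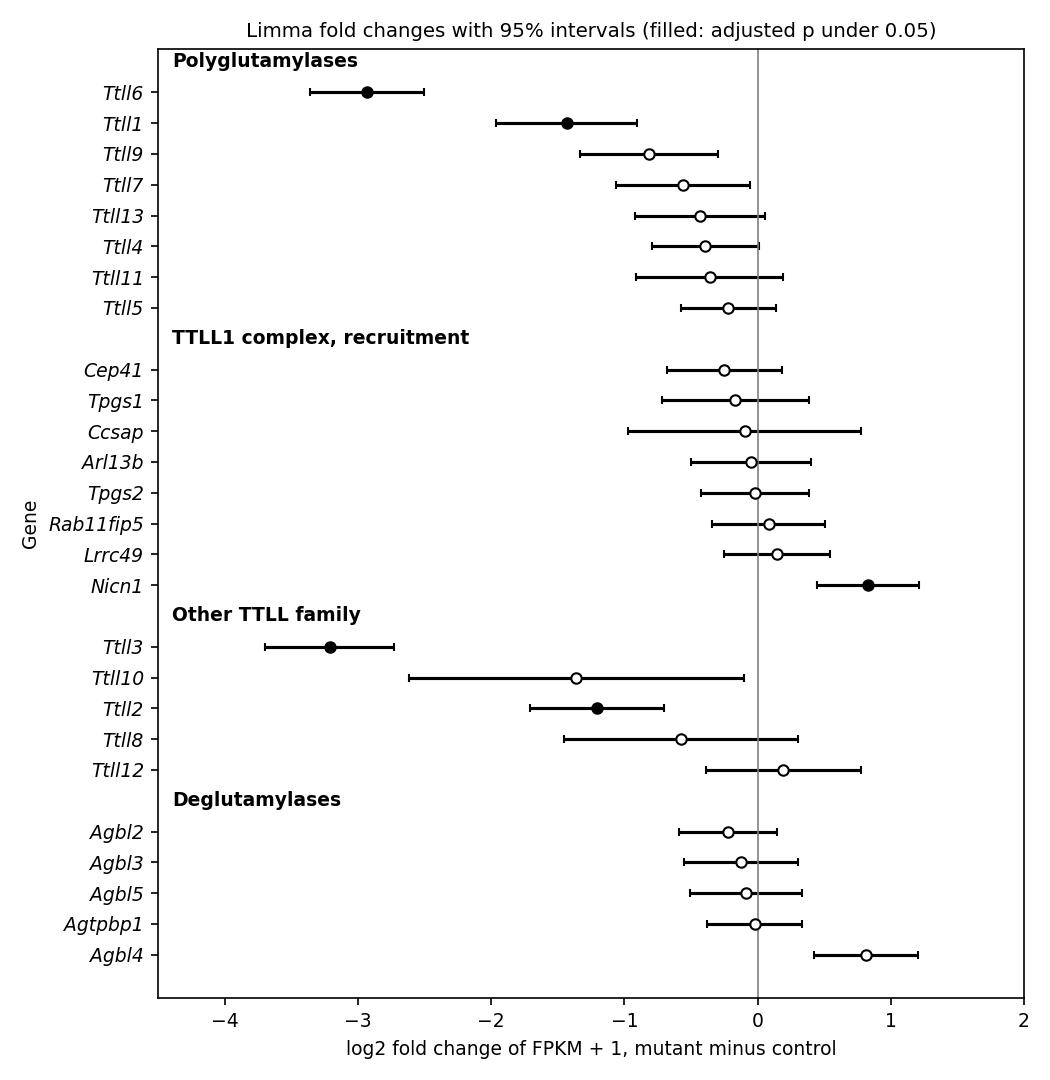
Log2 fold change of FPKM + 1, mutant minus control, from limma for the polyglutamylases and 3 related lists, with 95% intervals. Filled points have an adjusted p under 0.05 over all genes tested. Among the polyglutamylases only Ttll6 at -2.93 and Ttll1 at -1.43 are filled, and all 8 points lie left of 0.

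FPKM are scaled for transcript length, so levels can be set side by side between genes. In the controls the order of mean FPKM was Ttll13 at 94.3, Ttll5 at 67.5, Ttll9 at 60.2, Ttll6 at 34.7, Ttll4 at 28.6, Ttll1 at 14.7, Ttll11 at 10.5 and Ttll7 at 9.59. Between neighbours in this order, the control samples overlapped for Ttll5 with Ttll9 and for Ttll11 with Ttll7. In the mutants the first 3 places were unchanged, and Ttll6 moved from the fourth place to the last at 3.67. Ttll1 came just above it at 4.82, though Ttll1 and Ttll7 overlapped between the mutant samples, as did Ttll13 and Ttll5 and also Ttll11 and Ttll7.

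The summed FPKM of the 8 genes was 343 in control 1 and 297 in control 2, against 184 in mutant 1 and 230 in mutant 2, or 64.6% of control on average. Without Ttll6 and Ttll1 the sum of the other 6 was 73.2% of control. The 3 chain-lengthening genes summed to 150 and 129 in the controls and to 68.0 and 96.2 in the mutants. The 3 genes of the first step stood closer to control, at 107 and 104 in the controls and 82.2 and 89.3 in the mutants. The make-up of the sum differed as well. Ttll6 made up 10.6% and 11.1% of it in the controls but 1.95% and 1.63% in mutants 1 and 2. Ttll5 made up 20.2% and 22.1% in the controls and 31.2% and 25.5% in the mutants. Within a sample, the FPKM of Ttll6 relative to Ttll13 was 0.354 and 0.385 in the controls and 0.0618 and 0.0454 in the mutants. This ratio does not depend on the scaling between samples. These sums describe transcripts and give no measure of enzyme or of glutamylated tubulin.

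**Figure D3:**
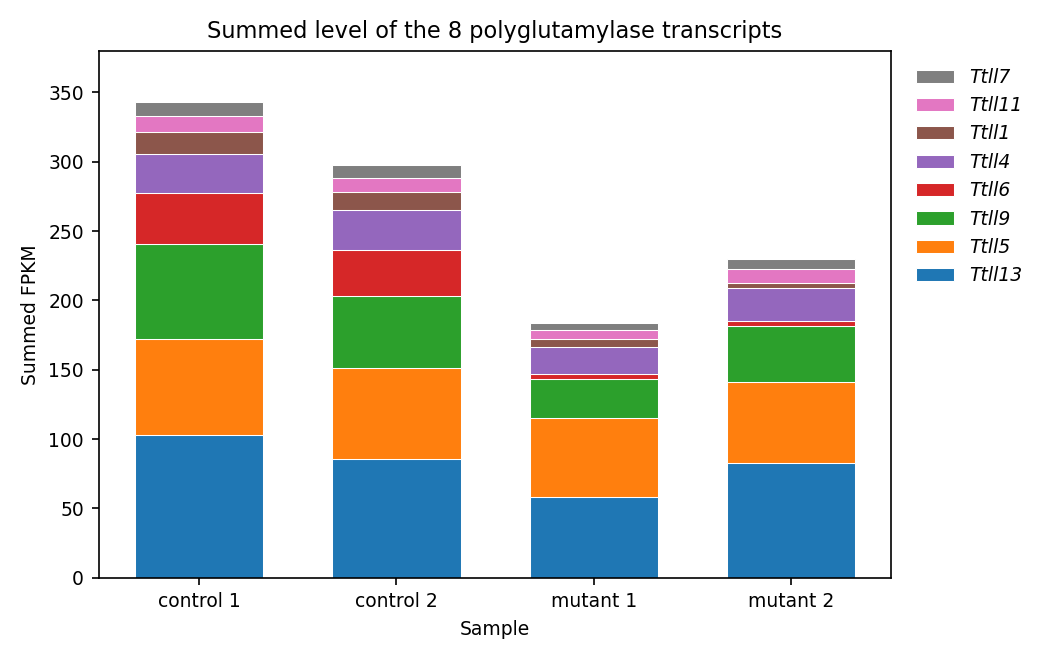
Summed FPKM of the 8 polyglutamylase genes in each sample, with a bar starting at 0 for each sample and a colour for each gene. The bars reach 343 and 297 in the controls and 184 and 230 in the mutants, and the red band of Ttll6 narrows from 36.4 and 33.1 to 3.58 and 3.75.

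The 2 mutant samples differed in their late germ cell markers, so each was also set against the control mean alone. For Ttll6 the log2 difference was -2.96 in mutant 1 and -2.91 in mutant 2. For Ttll1 it was -1.25 in mutant 1 and -1.61 in mutant 2. Ttll6 was about as low in mutant 2 as in mutant 1, and Ttll1 was lower in mutant 2. In mutant 2 the median difference of the elongating spermatid markers was 0.22 and that of the round spermatid markers 0.25. In mutant 1 those medians were -1.26 and -0.49. Each of the other 6 polyglutamylases was further below control in mutant 1 than in mutant 2, as for Ttll9 at -1.06 and -0.56 and for Ttll13 at -0.69 and -0.18. The part of spermatid content in the values of these 6 genes, and in those of Ttll6 and Ttll1, was not tested. Ttll5 differed least between the mutants, at -0.23 and -0.20. Spermatocyte markers, 6 in number, summed to 1197 and 1092 in mutants 1 and 2 and to 1104 and 1044 in the controls, and none was called.

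**Figure D4:**
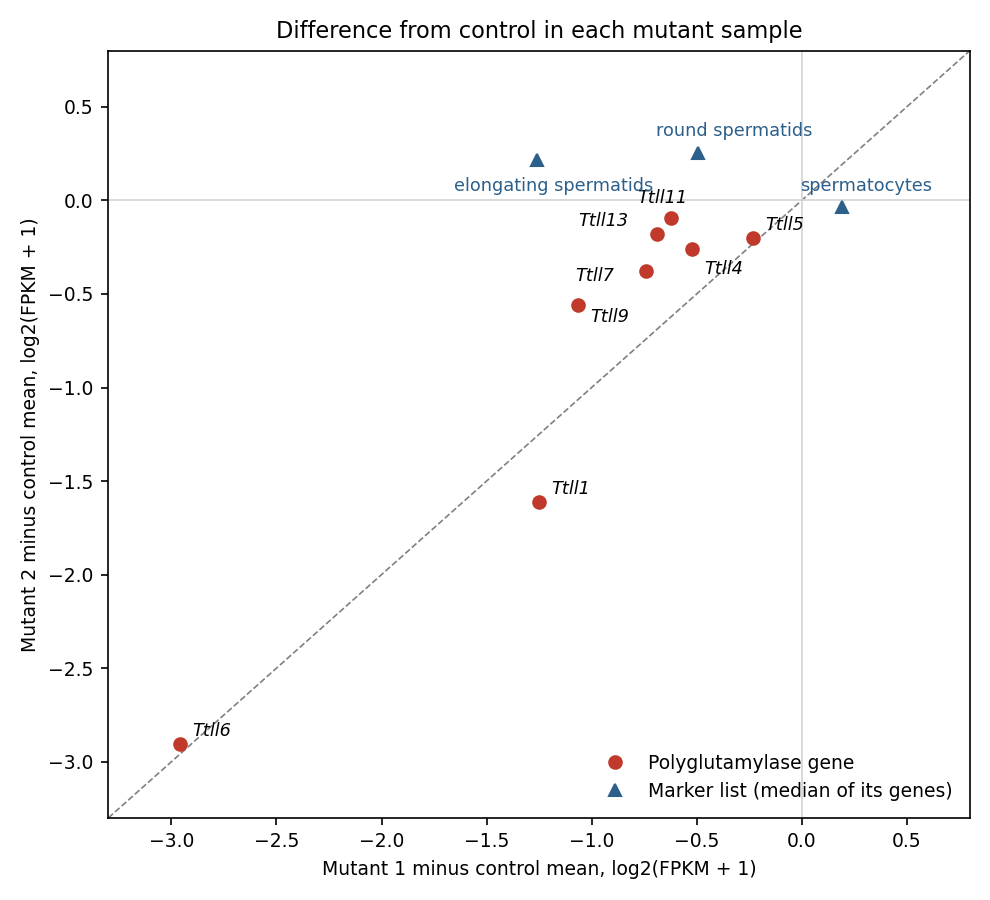
Difference from the control mean of log2(FPKM + 1) in mutant 1 (horizontal) and mutant 2 (vertical). Red circles are the 8 genes, blue triangles are medians of marker lists of germ cell stages, and the dashed line marks equal values. Ttll6 and Ttll1 lie near the line or below it, and the other 6 genes lie above it, closer to 0 in mutant 2.

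The genes whose profile over the 4 samples was most like that of Ttll6, by Euclidean distance between centred log2(FPKM + 1) values, were Ccdc40 at 0.148, Ccdc65 at 0.1604 and 4930444P10Rik at 0.173. Their log2 fold changes were -2.90, -2.82 and -3.11. Nearest to Ttll1 were Pitpnm1 at 0.0531, Gas8 at 0.0870 and Stk33 at 0.137, with log2 fold changes of -1.42, -1.37 and -1.45. These distances rest on 4 samples and describe likeness only.

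The enzymes act with partners, and of 9 genes for subunits of the TTLL1 complex or for proteins that bring TTLL enzymes to cilia and spindles, 8 were matched in the files and tested. None was lower and 1 was higher, against 2.52% lower and 0.308% higher over all genes tested. The median log2 fold change of these 8 was -0.033. The transcript of Nicn1, a subunit of the TTLL1 complex, was at 20.8 and 19.9 in the controls and at 39.3 and 34.6 in the mutants (log2 fold change 0.83, standard error 0.17, adjusted p = 0.0424). Both mutants lay above both controls, in the opposite direction to Ttll1. Nicn1 passed the threshold in 8 of 16 alternative fits, and not without control 1 or control 2. The other matched subunits did not pass the test, with log2 fold changes of -0.17 for Tpgs1, -0.02 for Tpgs2 and 0.15 for Lrrc49, and no value was matched for Cstpp1. Cep41, which helps TTLL6 enter cilia, had a log2 fold change of -0.25 and an adjusted p of 0.9999. For Arl13b, Rab11fip5 and Ccsap, which also act in the placement of TTLL enzymes, the fold changes were -0.05, 0.08 and -0.10, and none passed. Their 95% intervals reached from -0.97 to 0.78 at the widest, for Ccsap.

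Among the other TTLL family genes, 2 of 5 tested were lower and none was higher, where 2.52% of all genes tested were called lower and 0.308% higher. Of the 2, Ttll2 passed the filter on low values through the controls alone, so only a lower call was open to it. Its call is thus not evidence about the list. Ttll3, a glycylase that adds glycine in place of glutamate to tubulin, was at 20.1 and 18.2 in the controls and at 1.09 and 1.25 in the mutants (log2 fold change -3.21, adjusted p = 0.000131), also a gene the study chose for real-time PCR. Ttll2 was at 3.20 and 2.29 in the controls and at 0.489 and 0.744 in the mutants (log2 fold change -1.21, adjusted p = 0.0269), and was not called without control 1 or control 2. Ttll8, Ttll10 and Ttll12 did not pass, and Ttl was below the filter. Of the deglutamylases, the opposing enzymes, none of 5 tested was called by limma, with 1 at an unadjusted p under 0.05. That gene was Agbl4, whose product shortens glutamate chains, at 45.7 and 37.7 in the controls and 71.3 and 76.2 in the mutants (log2 fold change 0.81, standard error 0.17, adjusted p = 0.05003). Its adjusted p lay just above the threshold and fell below it in 5 of 16 alternative fits. It passed without mutant 1 and without mutant 2, and its adjusted p was 0.139 without control 1 and 0.339 without control 2. Agtpbp1, Agbl2, Agbl3 and Agbl5 had log2 fold changes from -0.22 to -0.02, and Agbl1 was below the filter.

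When 1000 bases to each side of the start were searched on both strands, an X-box with no mismatch and a gap of 0 to 3 bases was found in 1 of the 8 genes, Ttll9, and in 4.60% of 12728 genes. That site, GTTGCCgtAGCAAC with the gap in lower case, lies at chr2:152788210-152788223, from 11 bases before the start to base 3. With 1 mismatch allowed, Ttll1 and Ttll4 also held a match, in all 3 of 8, while 47.9% of all genes did. The Ttll1 match, GTGTCCtAGCAAC on the strand opposite to the gene, lies 106 to 118 bases before the start. The Ttll4 match, GTGTCCctAGCAAC on the opposite strand, lies at bases 48 to 61 of the gene. Ttll6, with the largest difference of expression, held no match in this window even with 1 mismatch, which says only that these letters are not there. For Ttll1 the study ran a ChIP assay for RFX2, with the primers ATTACAGCAGTTGAAGGCACA and ATACCGAGGCAGGAAAGAA. They matched the genome at chr15:83341196-83341526, a stretch of 331 bases from 203 bases before the start to base 128. This stretch holds the match with 1 mismatch and none without. From that assay the study reports Ttll1 as a target of RFX2. Its own sites were predicted with a matrix of motif scores, a search unlike the one made here.

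**Figure D5:**
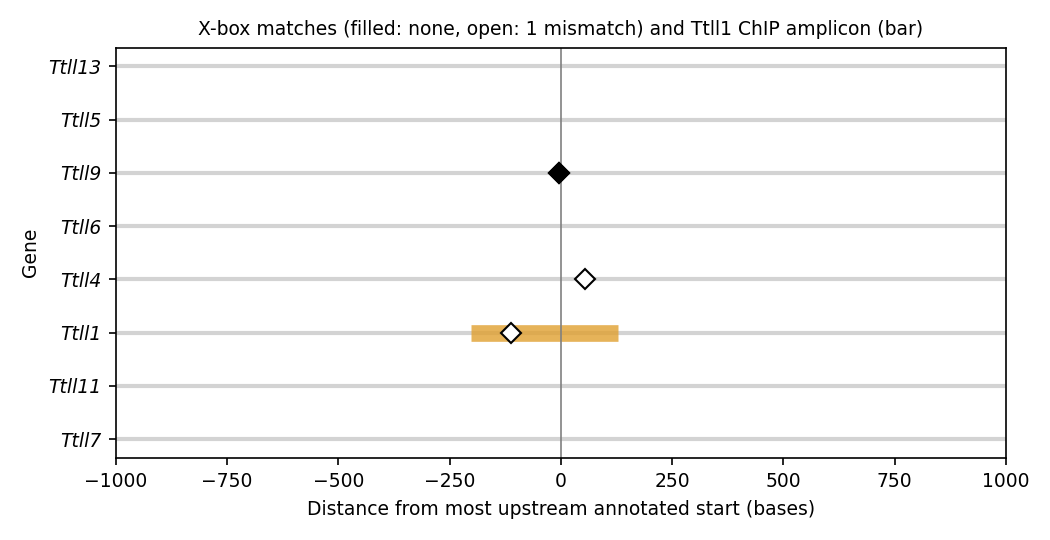
X-box matches in the 1000 bases to each side of the start of each gene, by distance from the start in bases. Filled diamonds have no mismatch, open diamonds 1 mismatch, and the orange bar is the stretch amplified for Ttll1 in the ChIP assay. Only the most upstream annotated start of each gene is used. At that start, matches are found in Ttll9, Ttll4 and Ttll1 alone, and in the other 5 genes none is drawn.

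The other members lie on the plus strand at chr1:74708319-74748406 (Ttll4), chr12:87165623-87394710 (Ttll5), chr3:146515331-146646973 (Ttll7) and chr7:87391262-87405707 (Ttll13), and on the minus strand at chr2:35606761-35835433 (Ttll11). The family is thus spread over 7 chromosomes, with Ttll9 and Ttll11 both on chromosome 2. The pair with the most similar coding sequences was Ttll6 and Ttll13, with 67.5% identity over 2235 aligned bases, and the longest identical run between any 2 members was 18 bases. Of the 3001 stretches of 50 bases in Ttll1 transcripts 6 were shared with Ccdc157, and none was shared with another gene in the other 7 members.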

How the data were processed

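RNA from whole testes of 2 Rfx2-/- and 2 control mice (P24) was sequenced by the study on an Illumina HiSeq instrument. The authors deposited FPKM per gene and sample with confidence bounds, from reads aligned to mm9 with TopHat2 2.0.6 (version from the submitters' processing notes) and Cufflinks with UCSC mm9 genes. These FPKM are scaled for transcript length and depth within a sample. Counts were not used here, so depth was estimated from the bounds and covers counting error only. That 2 samples per genotype were independent is the study's statement.

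FPKM of entries sharing a symbol were summed. Log2(FPKM + 1) was fitted with limma 3.58.1 under R 4.3.3 (lmFit, eBayes with trend, no block), two-sided, with Benjamini-Hochberg adjustment over all 12985 genes tested and a threshold of 0.05. The functions were tested on simulated data. Tables and figures used python 3.11.15, pandas 2.3.3, numpy 2.4.6, biopython 1.88 and matplotlib 3.10.9. The members, lists and markers were chosen with earlier results of these data known. The genes named were all 8 members, every gene of the list of TTLL1 partners, the genes of the lists of other TTLL genes and deglutamylases (as counts, with sample values for called genes and the largest change), Rfx2, and the 3 nearest profiles of each called member. Sample values of Ttll8 and Ttll10 were added after seeing the data. Tpgs1, Tpgs2, Cep41 and Ccsap were found under older symbols through RefSeq synonyms. X-boxes were searched on NCBIM37 with GENCODE M1 starts, and primers were read from the study's supplement. The confidence bounds were used as depth only. Other settings tried were a replicate block, robust eBayes, eBayes with no trend, quantile normalization, scaling by median ratios, smaller pseudocounts (0.1 and 0.01), other filters (none, 0.1 and 5), the ratio of means, the highest entry per symbol, each sample left out in turn, and for X-boxes 300 bases and 1 mismatch.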

Additional observations from a re-analysis of the deposited data

How the results depend on the processing

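With 2 samples per genotype, each p-value rests on few residual degrees of freedom and on the spread pooled across genes, and a fit without 1 sample assumes that the lone sample varies like the other group. In no alternative did any result reverse. Without a filter 1 polyglutamylase was called lower in place of 2, and leaving out 1 sample gave 1 to 4. None was called higher and no partner of TTLL1 lower in any fit. The partner called higher was lost (0) with no filter, a filter at 5, median-ratio scaling, quantile normalization and eBayes without a trend, and leaving out 1 sample gave 0 to 1. Of the other TTLL genes, 1 in place of 2 was lower with no filter, a filter at 5, median-ratio scaling or quantile normalization, and 1 to 4 with 1 sample left out. A deglutamylase, Agbl4, was called (1) with robust eBayes, with the highest entry per symbol and with the replicate block, and leaving out 1 sample gave 0 to 1. The summed ratio of 0.646 ranged from 0.574 to 0.718 with 1 sample left out. X-box matches rose from 1 to 3 genes with 1 mismatch. With no mismatch they stayed at 1 for 300 bases and, chosen after seeing the data, for any annotated coding start. The causes of these changes were not tested.

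The labels number the samples 1 and 2 in each genotype, but samples with the same number did not deviate together from their group means (correlation across genes -0.15). With 2 samples per group this single correlation cannot show whether the samples were paired. With the replicate block 3 polyglutamylases were called lower, as Ttll9 was added, together with 1 partner and 1 deglutamylase higher and 3 other TTLL genes lower, and over all genes 525 were lower and 70 higher, against 327 and 40. With the crossed replicate block, chosen after seeing the data, 1 polyglutamylase and 0 partners were called, and 266 genes were lower and 28 higher. Over all genes, the number called lower ranged from 199 with no filter to 427 with robust eBayes in the unblocked fits of 4 samples, and from 167 without control 1 to 948 without mutant 2. The number called higher was 17 with no filter, 17 with a filter at 5, 67 with robust eBayes and 16 after median-ratio scaling.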
